A study of Mus musculus with 9 samples.

Results

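The Hox cluster genes are the homeobox genes of the HoxA, HoxB, HoxC and HoxD clusters. Their members were every row of the count table whose Ensembl identifier maps to a symbol made of Hox, a cluster letter and a paralogue number, without the antisense genes. The rule found 39 members among the 56691 genes of the table: 11 in HoxA, 10 in HoxB, 9 in HoxC and 9 in HoxD. Testis RNA was taken from mice 7 days after birth, when the cords contain spermatogonia and Sertoli cells that have not yet matured. The 9 libraries form 3 groups of 3: testes lacking Gm1142 and Gm4779 (DKO), testes labelled as lacking Gm1142 (Gm1142KO), and normal wild type (WT). The labels give no strain, litter or construct for the null alleles, and nothing states that replicates came from separate animals. The p-values weigh a difference between groups against the spread of libraries within groups, and that spread may be only technical.

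Hox proteins are transcription factors that bind DNA through a homeodomain and give cells their position along the head-to-tail axis of the embryo. Within a cluster, genes are switched on in the order of their position, from the anterior paralogues (low numbers) to the posterior paralogues (high numbers), and Polycomb and trithorax complexes hold them off or on. In the mouse urogenital tract the posterior genes, among them Hoxa10, Hoxa11 and Hoxa13, pattern the ducts, the gubernaculum and the external genitalia. Paralogues with the same number in different clusters arose by duplication of an ancestral cluster and often act redundantly.

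Library depth and identity bear on each value below. The libraries held 4370124 to 8359594 counts, and replicate 2 of DKO was the deepest. The sequenced RNA carried 29.6%, 27.1% and 32.9% mitochondrial counts in DKO, 32.5%, 38.9% and 35.2% in labelled Gm1142KO and 29.4%, 32.7% and 30.1% in WT. Gm1142 (listed as 8030474K03Rik) had 0 counts in each DKO library, 65, 46 and 50 counts in the labelled Gm1142KO libraries and 56, 50 and 41 counts in WT. Gm4779 had 0 counts in each DKO library, 88, 61 and 59 counts in the labelled Gm1142KO libraries and 42, 48 and 53 counts in WT. Scaled for depth, its labelled Gm1142KO libraries lay above WT without overlap, but it was not called (log2 fold change 0.65, SE 0.30, adjusted p in edgeR = 0.146). The counts of both genes therefore go with the DKO label. Those of Gm1142 do not check the Gm1142KO label, so that group is called labelled Gm1142KO throughout. Sertoli markers summed to between 1563 and 1968 CPM (counts scaled to library size) in DKO, between 1694 and 1794 CPM in labelled Gm1142KO and between 1711 and 1825 CPM in WT, and each of the 11 had counts. In bulk RNA, fewer cells of a type and less RNA per cell cannot be told apart.

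Hox transcripts were a small share of the libraries. CPM values are counts divided by a library size scaled with the trimmed mean of M-values (TMM). Summed over the 39 members they came to 237.7, 187.6 and 239.9 CPM in DKO, 294.4, 321.1 and 264.4 CPM in labelled Gm1142KO, and 327.7, 307.5 and 406.6 CPM in WT. The DKO libraries lay below each library of both other groups, and the labelled Gm1142KO libraries overlapped WT. The means were 221.7 ± 29.6 CPM in DKO, 293.3 ± 28.4 CPM in labelled Gm1142KO and 347.3 ± 52.4 CPM in WT (SD, n = 3 each). Counts came from 29 to 36 members in a DKO library, from 33 in each labelled Gm1142KO library and from 34 or 35 in a WT library.

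**Figure D1:**
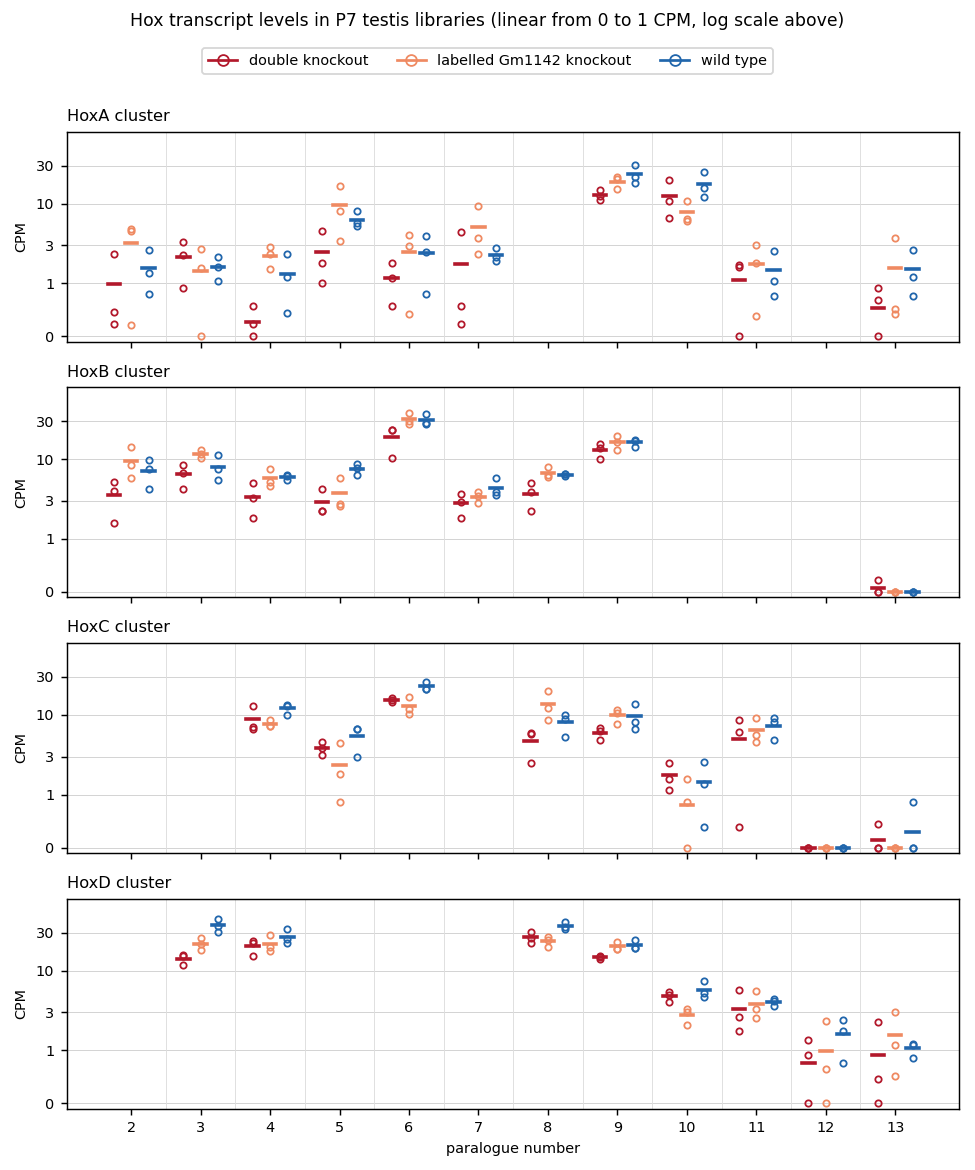
CPM of the Hox genes with paralogue numbers 2 to 13 (x axis) and cluster (panels), 1 circle per library and a bar at the group mean. The y axis is linear up to 1 CPM and logarithmic above it. In HoxD, Hoxd3 and Hoxd8 have DKO and labelled Gm1142KO circles below the WT circles, and the paralogues 12 and 13 reach at most 3.69 CPM in any cluster.

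Summed by position in the clusters, the central genes were highest in each group. The blocks hold 8 anterior, 15 central and 16 posterior members, so the sums also depend on gene number and are not levels per gene. The central paralogues 4 to 8 summed to 116.6 ± 27.6 CPM in DKO, 152.7 ± 29.6 CPM in labelled Gm1142KO and 178.9 ± 20.5 CPM in WT (SD, n = 3 each). The posterior paralogues 9 to 13 summed to 77.5 ± 18.3 CPM in DKO, 92.9 ± 13.8 CPM in labelled Gm1142KO and 112.3 ± 22.6 CPM in WT. The anterior paralogues 1 to 3 summed to 27.7 ± 7.53 CPM in DKO, 47.7 ± 12.4 CPM in labelled Gm1142KO and 56.0 ± 12.02 CPM in WT. Paralogue group 12 summed to at most 2.37 CPM in any library, and paralogue group 13 to at most 4.86 CPM.

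Levels of different genes can be compared only per exonic length. Divided by all exonic bases, Hoxb6 had the highest level in WT at 15.7 ± 2.58 CPM per kb, followed by Hoxd8 at 13.2 ± 1.44, Hoxd9 at 9.77 ± 1.32, Hoxc6 at 9.50 ± 1.23, Hoxd4 at 9.06 ± 2.01 and Hoxd3 at 8.84 ± 1.64 CPM per kb. Hoxb9 followed at 6.36 ± 0.67 CPM per kb, then Hoxa10 at 5.36 ± 2.04, Hoxc4 at 4.73 ± 0.71 and Hoxa9 at 4.20 ± 1.11 CPM per kb. Of the 38 pairs of neighbours in this order, 36 overlapped between their WT libraries. The breaks came after Hoxd8 and after Hoxd3. In DKO the order began with Hoxb6 at 9.70 ± 3.88 and Hoxd8 at 9.49 ± 1.62 CPM per kb, and 36 of 38 neighbour pairs overlapped, against 37 of 38 in labelled Gm1142KO. By this measure Hoxb6, Hoxd8, Hoxc6 and Hoxa10 led their clusters in WT. The order depends on how exons that 2 genes share are treated. Divided only by the exonic bases that no other gene on the same strand covers, Hoxd3 stood at 8.97 ± 1.34 CPM per kb in DKO and 23.5 ± 4.35 in WT, and Hoxd4 at 14.4 ± 3.17 in DKO and 19.0 ± 4.21 in WT (SD, n = 3 each). Both then lay above Hoxb6 and Hoxd8 in WT, with Hoxd3 first in HoxD, and Hoxd4 came first in DKO. The leaders of the other 3 clusters in WT stayed as named.

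The members below the count filter, which were not tested, were 11, among them Hoxa11, Hoxa13, Hoxb13, Hoxc12, Hoxd12 and Hoxd13, with 0 to 67 counts over the 9 libraries. Hoxc12 had 0 counts in each library, where 3 counts correspond to 0.338 to 0.767 CPM. Hoxa13 and Hoxd13, which pattern the end of the urogenital tract and the digits, reached at most 3.69 and 2.98 CPM. Hoxa13 had 0, 0.677 and 0.906 CPM in DKO, 3.69, 0.511 and 0.426 CPM in labelled Gm1142KO and 0.766, 1.18 and 2.58 CPM in WT, and the groups overlapped. Hoxa11, which acts with Hoxa10 in the reproductive tract, had 0, 1.69 and 1.59 CPM in DKO, 0.388, 1.79 and 2.98 CPM in labelled Gm1142KO and 0.766, 2.56 and 1.08 CPM in WT. The other 28 members were tested, 15 of them above the filter's level of 1.999 CPM in each of the 9 libraries.

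DKO was compared with WT first, which asks whether losing Gm1142 and Gm4779 together goes with other Hox levels. Hoxd3 fell, and it was the Hox gene called at a Benjamini-Hochberg adjusted p under 0.05 in edgeR's quasi-likelihood test: 1 of 28 tested members lower and 0 higher. Over the 17251 genes tested in this comparison, 0.0464% were called lower and 0.0927% in either direction, 16 genes in all. Hoxd3, which patterns the first vertebrae of the neck in mice, had 79, 104 and 69 counts in DKO and 188, 156 and 206 counts in WT. Scaled for depth, this was 15.1, 11.7 and 15.6 CPM in DKO against 36.0, 30.7 and 44.4 CPM in WT. Each DKO library lay below each WT library, by more than the spread within either group. The level averaged 14.2 ± 2.12 CPM in DKO and 37.0 ± 6.87 CPM in WT (SD, n = 3 each), a log2 fold change of -1.40 (SE 0.21, adjusted p in edgeR = 0.0028). The call held in each of 19 alternative settings, with adjusted p up to 0.0468.

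Hoxd3 shares much of its sequence with other rows of the table. In the GRCm38 annotation used as reference, Hoxd3 (ENSMUSG00000079277.10) spans positions 74711927 to 74748442 of chromosome 2 on the plus strand. Of its 4191 exonic bases, 62.35% lie in exons of Hoxd4 or Gm28230 on the same strand, and Hoxd4 shares 52.31% of its 2948 bases in the same way. How reads in shared exons were counted is not given in the sources used here. Hoxd4, which acts in the hindbrain and neck, had 23.3, 15.1 and 22.2 CPM in DKO and 24.7, 22.1 and 33.4 CPM in WT, and the groups overlapped (log2 fold change -0.41, SE 0.23, adjusted p in edgeR = 0.615). With the counts of both genes added into 1 row, the level was 38.5, 26.8 and 37.8 CPM in DKO against 60.7, 52.8 and 77.7 CPM in WT. The groups did not overlap, and the summed row had a log2 fold change of -0.90 (SE 0.19) with an edgeR adjusted p of 0.0803, so it was not called.

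The start regions of Hoxd3 and of the other called members with a single entry in the RefSeq promoter table are shown because the report turns on these genes. Each is the 250 bases before the RefSeq start in GRCm38.p6, written 5′ to 3′ on the gene's strand, with capitals at each TAAT (the core that homeodomains bind) read on either strand. Hoxd3 is chr2:74711743-74711992 on the plus strand, Hoxd8 is chr2:74704365-74704614 on the plus strand and Hoxa5 is chr6:52204588-52204837 on the minus strand. In the reference annotation Hoxd3 starts at 74711927 and Hoxd4 at 74711929, so the Hoxd3 window also holds the annotated start of Hoxd4, which was not called.
Hoxd3: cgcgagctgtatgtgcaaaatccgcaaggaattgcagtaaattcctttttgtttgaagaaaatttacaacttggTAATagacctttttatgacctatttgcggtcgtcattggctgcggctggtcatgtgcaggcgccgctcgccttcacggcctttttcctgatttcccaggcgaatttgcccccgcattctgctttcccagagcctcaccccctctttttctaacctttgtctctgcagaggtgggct
Hoxd8: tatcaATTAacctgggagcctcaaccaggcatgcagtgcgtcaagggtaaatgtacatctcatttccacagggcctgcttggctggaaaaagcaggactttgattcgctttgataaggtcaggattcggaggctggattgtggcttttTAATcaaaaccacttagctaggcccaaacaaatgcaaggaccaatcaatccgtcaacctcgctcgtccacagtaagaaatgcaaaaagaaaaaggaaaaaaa
Hoxa5: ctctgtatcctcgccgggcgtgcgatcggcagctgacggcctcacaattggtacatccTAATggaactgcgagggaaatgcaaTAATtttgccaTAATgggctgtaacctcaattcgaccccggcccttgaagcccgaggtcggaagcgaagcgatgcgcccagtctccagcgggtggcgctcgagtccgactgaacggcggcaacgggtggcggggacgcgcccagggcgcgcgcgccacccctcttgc
Hoxd3 has 1 TAAT, Hoxd8 has 2 and Hoxa5 has 3 in these windows. A TAAT stands in 54.92% of all 32841 promoter windows of the same length and in 18 of the 24 windows of Hox genes, which cover 22 of the 39 members. Also searched on both strands were TGATNNAT, a joint Pbx and Hox motif, in 7.686% of all windows and 4 Hox windows, and GGGCGG, the core of Sp1 motifs, in 32.75% and 10. None of the 3 windows shown holds either. A TGATNNAT that contains a TAAT counts for both motifs. The Hox windows held a median of 12.5 CpG dinucleotides, against 6 over all windows, and Hoxa5 held 28, Hoxd3 12 and Hoxd8 6.

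The other tested members mostly had lower values in DKO than in WT, without an adjusted p under 0.05. Their log2 fold changes lay from -2.19 to 0.37, with a median over the 28 of -0.62, against 0.02 over all tested genes. Negative values were found for 27 of the 28, against 47.7% of all tested genes, and the exception was Hoxa3. Counted without any filter, the mean was lower in DKO than in WT for 34 of the 37 members with a count in either group. It was lower for 15 of the 15 members that exceeded the filter's level in each library, a choice that does not depend on which group is high, and for 7 of 9 below the filter. At an unadjusted p under 0.05, 13 of 28 were lower and 0 higher, beside 4.13% lower and 4.82% higher (8.95% in all) over the tested genes. Leaving out 1 library gave 6 to 16 members at that level in either direction, among the 31 to 33 members in those fits. The count was 6 when replicate 2 of DKO or replicate 3 of WT was left out. The 13 include Hoxa4, Hoxa5 and Hoxb2, which exceeded the filter's level in 0, 1 and 2 of the DKO libraries. These 3 passed the filter with the help of the other groups, so their low DKO level is partly fixed by that choice.

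Each DKO library lay below each WT library for 10 of the 28 (7.57% of all tested genes): Hoxa5, Hoxa9, Hoxb4, Hoxb5, Hoxb6, Hoxb8, Hoxc6, Hoxd3, Hoxd8 and Hoxd9. Hoxa5 and Hoxb4 exceeded the filter's level in only 1 and 2 of the DKO libraries. None of the 28 had each DKO library above WT, which 8.28% of all tested genes did. Hoxa9, a posterior gene, had 12.6, 11.1 and 14.9 CPM in DKO and 21.6, 18.3 and 30.4 CPM in WT (log2 fold change -0.87, SE 0.24, adjusted p in edgeR = 0.241). Hoxb5, a central gene that acts in enteric neural crest, had 4.21, 2.26 and 2.26 CPM in DKO and 6.32, 8.67 and 7.75 CPM in WT (-1.39, SE 0.43, adjusted p in edgeR = 0.309). Hoxb6 had 23.3, 10.3 and 23.6 CPM in DKO and 27.4, 28.4 and 36.6 CPM in WT (-0.72, SE 0.25, adjusted p in edgeR = 0.409). For these 3 genes the groups do not overlap, and the adjusted p-values are far above the threshold.

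**Figure D2:**
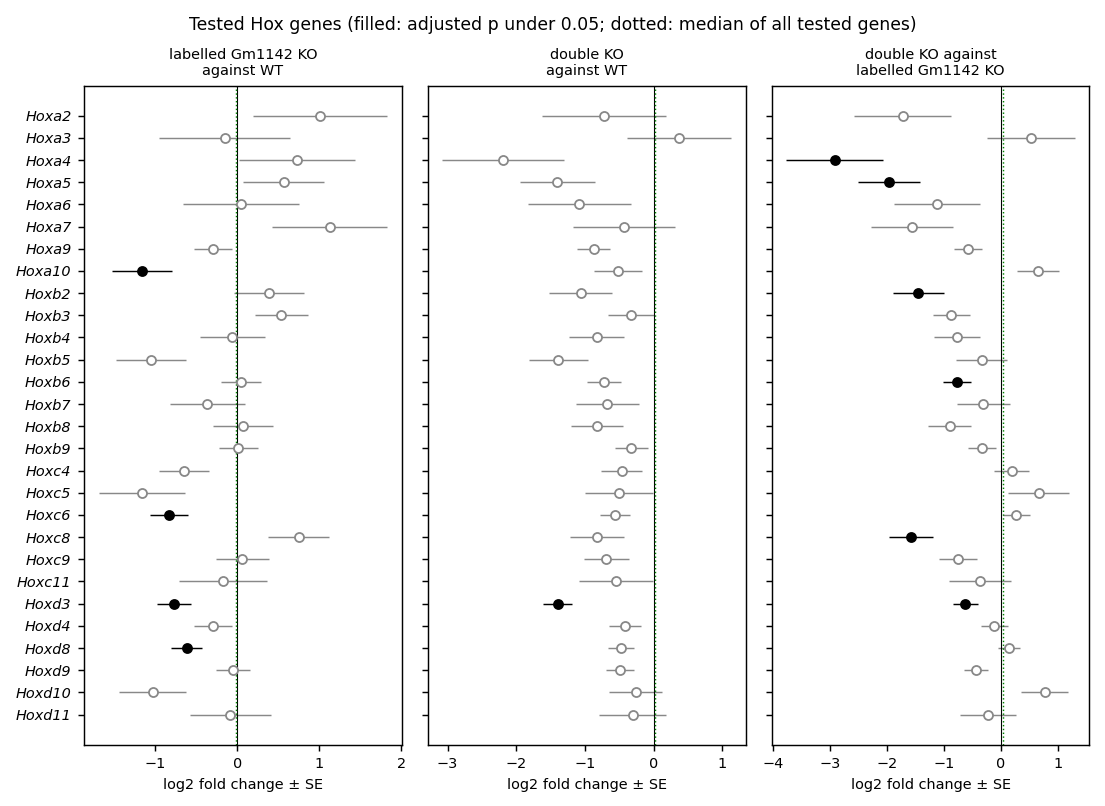
Log2 fold change ± SE of the 28 tested Hox genes in each of the 3 comparisons. Filled points have an edgeR adjusted p under 0.05, the solid line is 0 and the dotted line is the median of all tested genes. Against WT, 27 of 28 DKO points lie below 0 with only Hoxd3 filled, while the labelled Gm1142KO points lie on both sides. The comparisons share libraries.

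By cluster, the DKO sums lay below WT in each of the 4 clusters without overlap. HoxA summed to 35.4, 28.2 and 44.2 CPM in DKO, 56.3, 63.2 and 42.4 CPM in labelled Gm1142KO and 54.4, 50.5 and 74.7 CPM in WT. HoxB summed to 63.5, 39.8 and 61.8 CPM in DKO, 88.4, 102.3 and 77.3 CPM in labelled Gm1142KO and 78.3, 80.8 and 101.4 CPM in WT. In both clusters the labelled Gm1142KO libraries overlapped the WT libraries. HoxC summed to 48.8, 40.5 and 48.0 CPM in DKO, 55.9, 58.0 and 47.5 CPM in labelled Gm1142KO and 64.5, 55.4 and 81.6 CPM in WT. HoxD, the cluster with the highest sum, had 89.9, 79.1 and 85.8 CPM in DKO, 93.8, 97.7 and 97.2 CPM in labelled Gm1142KO and 130.6, 120.8 and 148.8 CPM in WT. In HoxD each library of both knockout groups lay below each WT library. By paralogue number, 13 of 13 sums had a lower mean in DKO than in WT, and the groups did not overlap for the numbers 3, 5, 6, 8 and 9. These sums hold the same members as the counts above. Those of numbers 1, 12 and 13 were low, with WT means of 0.594, 1.62 and 2.86 CPM.

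The comparison of labelled Gm1142KO with WT had 4 Hox genes called lower and 0 higher. Over all genes tested, 8.38% were called lower and 10.2% higher, 18.5% in all, so a count of 4 of 28 in either direction is near the background. The 4 were Hoxd3, Hoxd8, Hoxc6 and Hoxa10, and with replicate 3 of WT left out none of them was called, against 2 without replicate 3 of labelled Gm1142KO. The median log2 fold change of the 28 tested members was -0.07, against -0.01 over all genes, with 16 negative and 12 positive values. By cluster, negative values were found for 6 of 6 tested HoxD genes, 4 of 6 HoxC genes, 3 of 8 HoxB genes and 3 of 8 HoxA genes.

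Hoxd3 had 21.6, 25.6 and 17.9 CPM in labelled Gm1142KO and 36.0, 30.7 and 44.4 CPM in WT, with no overlap. It averaged 21.7 ± 3.84 CPM in labelled Gm1142KO and 37.0 ± 6.87 CPM in WT (log2 fold change -0.78, SE 0.21, adjusted p in edgeR = 0.0116). As 1 row with Hoxd4 it was also called (-0.56, SE 0.19, adjusted p in edgeR = 0.0429). Hoxd8, its neighbour in the cluster, had 24.5, 19.7 and 26.4 CPM in labelled Gm1142KO and 40.6, 32.9 and 35.1 CPM in WT. Its libraries did not overlap either, and the log2 fold change was -0.62 (SE 0.19, adjusted p in edgeR = 0.0266). Hoxd8 shares no exonic base with another gene in the reference annotation, unlike Hoxd3.

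Hoxc6, which acts in the thorax and in mammary and limb patterning, had 11.8, 16.6 and 10.2 CPM in labelled Gm1142KO and 21.4, 20.9 and 26.3 CPM in WT. The groups did not overlap, and the log2 fold change was -0.83 (SE 0.23, adjusted p in edgeR = 0.0142). Hoxa10, whose loss in mice leaves the testes undescended, had 6.41, 6.14 and 10.9 CPM in labelled Gm1142KO and 12.1, 15.6 and 24.98 CPM in WT. The highest labelled Gm1142KO library lay just below the lowest WT library (-1.16, SE 0.36, adjusted p in edgeR = 0.0306). In DKO, Hoxa10 spread over 6.51, 10.9 and 19.7 CPM and overlapped both other groups. Leaving out 1 library ended the calls of Hoxd3 and Hoxc6 for replicate 3 of labelled Gm1142KO or of WT (adjusted p in edgeR up to 0.0781 and 0.0747). It ended that of Hoxd8 for replicate 2 of labelled Gm1142KO or replicate 1 or 3 of WT (up to 0.129), and that of Hoxa10 for replicate 1 or 2 of labelled Gm1142KO or replicate 2 or 3 of WT (up to 0.186).

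Each labelled Gm1142KO library lay below each WT library for 7 of the 28 (17.2% of all tested genes) and above for none (18.7%). Besides the 4 called genes these were Hoxb5, Hoxc4 and Hoxd10. Hoxd10, which patterns the hindlimb and lower spine, had 3.30, 2.05 and 2.98 CPM in labelled Gm1142KO and 4.59, 7.49 and 5.17 CPM in WT (-1.03, SE 0.41, adjusted p in edgeR = 0.0893). At an unadjusted p under 0.05, 8 were lower and 0 higher, beside 14.8% lower and 16% higher (30.8% in all) over the tested genes.

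**Figure D3:**
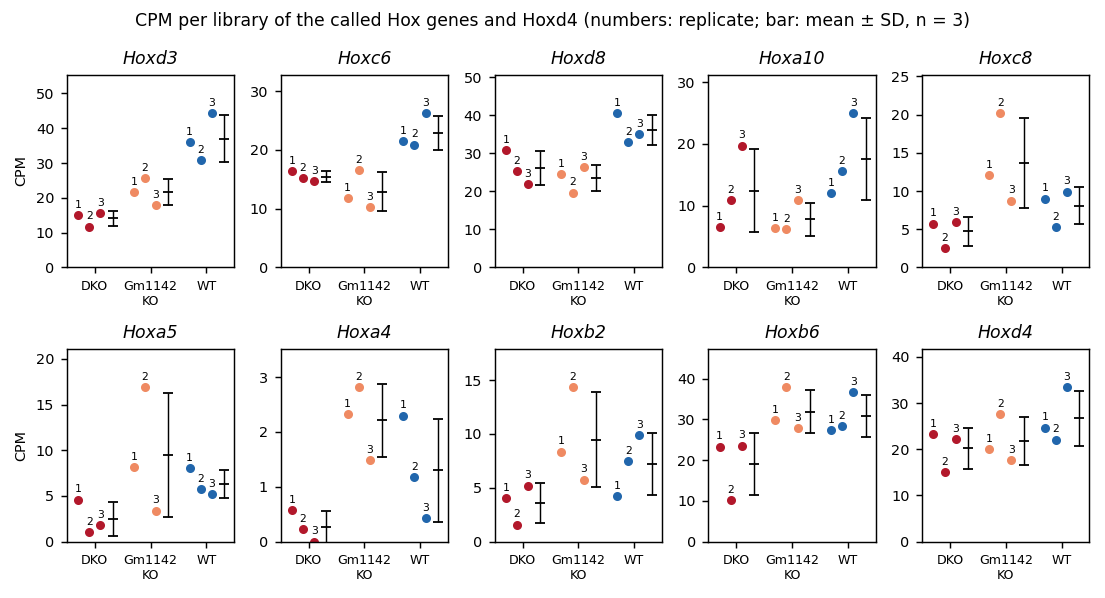
CPM in each library of the 9 Hox genes called in any comparison and of Hoxd4, which shares exons with Hoxd3. Numbers are replicates, and the bar beside the points is the mean ± SD (n = 3). Hoxd3 is lowest in DKO and highest in WT without overlap, while Hoxc8, Hoxa5 and Hoxb2 have their highest value in replicate 2 of labelled Gm1142KO.

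The knockout groups were then compared with each other, which tests the difference between them directly. In DKO, 6 Hox genes were called lower than in labelled Gm1142KO and 0 higher. Over all genes tested, 10.1% were called lower and 9.07% higher, 19.1% in all, so 6 of 28 in either direction is near the background. The 6 were Hoxc8, Hoxa5, Hoxa4, Hoxb2, Hoxb6 and Hoxd3, all of paralogue numbers 2 to 8. Most tested members had such numbers: 5 of the 8 numbered 1 to 3 and 15 of the 15 numbered 4 to 8 were tested. Of the 16 numbered 9 to 13, 8 were tested. The median log2 fold change was -0.51 over the 28 tested members and 0.03 over all genes, with 21 negative and 7 positive values. The count rested on replicate 2 of each group: 1 member was called with replicate 2 of DKO left out, 1 with replicate 2 of labelled Gm1142KO left out, and 0 with both left out, when 3 had an unadjusted p under 0.05. With DKO and labelled Gm1142KO fitted without WT, 3 were called.

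Hoxc8, which patterns the thoracic spine and its motor neurons, had 5.74, 2.48 and 5.89 CPM in DKO and 12.04, 20.2 and 8.74 CPM in labelled Gm1142KO. The groups did not overlap (log2 fold change -1.58, SE 0.39, adjusted p in edgeR = 0.00683). Without replicate 2 of both groups its adjusted p was 0.189. WT lay between, at 8.997, 5.32 and 9.91 CPM, and overlapped both groups.

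The HoxA genes called here were low in counts. Hoxa5, which acts in lung and cervical patterning, had 4.59, 1.02 and 1.81 CPM in DKO and 8.16, 16.9 and 3.41 CPM in labelled Gm1142KO, and the groups overlapped (-1.97, SE 0.54, adjusted p in edgeR = 0.0142). Hoxa4 had 3, 2 and 0 counts in DKO and 12, 11 and 7 counts in labelled Gm1142KO, or 0.574, 0.226 and 0 CPM against 2.33, 2.81 and 1.49 CPM (-2.92, SE 0.85, adjusted p in edgeR = 0.0204). Hoxa4 passed the filter through the labelled Gm1142KO and WT libraries alone, so its low DKO level is partly fixed by that choice. In the reference annotation 16% of its exonic bases lie opposite exons of Gm29430.

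In HoxB, Hoxb2, which acts in the hindbrain, had 4.02, 1.58 and 5.21 CPM in DKO and 8.35, 14.3 and 5.75 CPM in labelled Gm1142KO (-1.45, SE 0.45, adjusted p in edgeR = 0.029). In the reference annotation 27.32% of the exonic bases of Hoxb2 lie opposite exons of Hoxb3os. Hoxb6 had 23.3, 10.3 and 23.6 CPM in DKO and 29.9, 37.8 and 27.9 CPM in labelled Gm1142KO (-0.77, SE 0.25, adjusted p in edgeR = 0.0378). Neither gene's groups overlapped, and replicate 2 held the lowest DKO value and the highest labelled Gm1142KO value of both. Hoxd3 stood at 15.1, 11.7 and 15.6 CPM in DKO and 21.6, 25.6 and 17.9 CPM in labelled Gm1142KO, again without overlap (-0.62, SE 0.22, adjusted p in edgeR = 0.0476). Without replicate 2 of either group, Hoxa5 and Hoxb2 lost their calls (adjusted p in edgeR up to 0.128 and 0.161). Hoxa4 lost its call without replicate 2 or 3 of DKO or replicate 1 or 2 of labelled Gm1142KO (up to 0.107). Hoxb6 lost its call without replicate 2 of DKO, replicate 2 or 3 of labelled Gm1142KO or replicate 1 or 2 of WT (up to 0.215). The call of Hoxd3 was lost in 13 of 19 alternative settings, so the position of labelled Gm1142KO between DKO and WT rests on an adjusted p close to the threshold. As 1 row with Hoxd4, the level was 38.5, 26.8 and 37.8 CPM in DKO against 41.6, 53.2 and 35.6 CPM in labelled Gm1142KO. There the groups overlapped and the row was not called (-0.35, SE 0.19, adjusted p in edgeR = 0.223).

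Each DKO library lay below each labelled Gm1142KO library for 10 of the 28 (17.1% of all tested genes). The reverse was found for Hoxd10 (16.3% of all tested genes), at 4.02, 5.30 and 4.98 CPM in DKO against 3.30, 2.05 and 2.98 CPM in labelled Gm1142KO (0.77, SE 0.41, adjusted p in edgeR = 0.207). At an unadjusted p under 0.05, 12 were lower (15.5% of all tested genes) and 0 higher (16.6%, and 32.2% in either direction). Hoxa4, Hoxa5, Hoxa7 and Hoxb2 were among the 12, and they exceeded the filter's level in 0, 1, 1 and 2 of the DKO libraries.

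The members also varied within groups, by position in the clusters. Paralogues 9 to 13 made up 24.8%, 41.5% and 39.8% of the Hox counts in the DKO libraries, 33.4%, 24.0% and 39% in labelled Gm1142KO and 29.3%, 33.5% and 34.0% in WT. The 95% Wilson intervals, which cover counting error only, were 22.5% to 27.3% for replicate 1 of DKO and 21.8% to 26.5% for replicate 2 of labelled Gm1142KO. The lowest other library was replicate 1 of WT, at 27.2% to 31.5%. These 2 libraries thus stood low within groups whose other replicates lay above them, and the 3 groups overlapped, with means of 35.4% ± 9.20 in DKO, 32.1% ± 7.55 in labelled Gm1142KO and 32.2% ± 2.58 in WT (SD, n = 3 each).

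**Figure D4:**
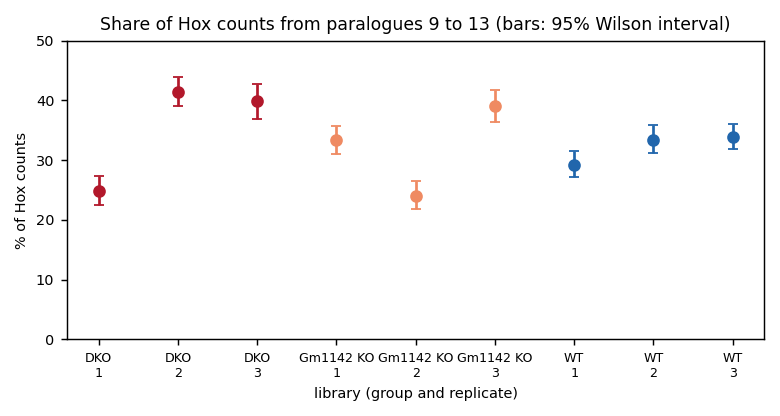
Share of Hox counts that came from paralogues 9 to 13 in each library, with 95% Wilson intervals. Replicate 1 of DKO (24.8%) and replicate 2 of labelled Gm1142KO (24.0%) lie below the other 7 libraries, which range from 29.3% to 41.5%.

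The same libraries led the anterior and central genes. Among paralogues 1 to 8 with a count in DKO, replicate 1 had the highest CPM for 15 of 21 and replicate 2 the lowest for 14. Among paralogues 9 to 13, replicate 1 of DKO had the lowest CPM for 9 of 15. In labelled Gm1142KO, replicate 2 had the highest CPM for 15 of 23 of the paralogues 1 to 8 and the lowest for 8 of 13 of the paralogues 9 to 13. Hoxc11, a posterior gene, shows the spread: 0.383, 6.09 and 8.61 CPM in DKO, 5.63, 4.602 and 9.16 CPM in labelled Gm1142KO and 4.79, 9.07 and 8.18 CPM in WT.

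Markers of other cells moved with the Hox levels in part. The 15 markers of duct epithelium and epididymis, tissues that express Hox genes and adjoin the testis, summed to 105.0, 84.8 and 101.0 CPM in DKO, 160.0, 122.5 and 108.7 CPM in labelled Gm1142KO and 137.4, 144.7 and 159.1 CPM in WT. The DKO sums lay below both other groups without overlap, as the Hox sums did. Lcn5 was at 0 in each library, Lcn8 at no more than 0.906 CPM, and 0 of 13 tested markers were called in DKO or in labelled Gm1142KO against WT, with 1 (Cdh16) lower in DKO than in labelled Gm1142KO. At an unadjusted p under 0.05 in edgeR's test, 6 of the 13 were lower and 0 higher in DKO than in WT. Over all tested genes 4.13% were lower by that measure. The median log2 fold change of the 13 in DKO against WT was -0.70, against 0.02 over all tested genes. The 8 germ-cell markers summed to 632.6 to 769.4 CPM in DKO, 319.1 to 417.8 CPM in labelled Gm1142KO and 396.6 to 469.7 CPM in WT, none of them at 0. Of the 8, 2 were called higher in DKO than in WT and 0 lower, beside 0.0464% higher over all tested genes. At an unadjusted p under 0.05 in edgeR's test 6 were higher, beside 4.82%. Against labelled Gm1142KO, 6 were called higher in DKO and 0 lower, beside 9.07% higher over all tested genes. The sums of the 10 stromal markers overlapped between the groups, at 2629 to 3867 CPM in DKO, 2828 to 4605 CPM in labelled Gm1142KO and 3159 to 3883 CPM in WT. Other lists separated labelled Gm1142KO from WT. The 7 Leydig markers summed to 269.6 to 353.3 CPM in labelled Gm1142KO and 380.7 to 615.0 CPM in WT. Of the 6 tested, 2 were called lower, beside 8.38% lower over all tested genes. The 6 macrophage markers summed to 49.6 to 55.4 CPM in labelled Gm1142KO and 58.4 to 66.8 CPM in WT, with 0 called. The 5 neuron markers summed to 5.11 to 10.7 CPM in labelled Gm1142KO and 11.4 to 21.2 CPM in WT, and the 4 red blood cell markers to 74.9 to 108.2 CPM in labelled Gm1142KO and 56.4 to 62.0 CPM in WT. Each of these 4 lists overlapped between DKO and WT, where the skeletal muscle markers stood higher in DKO, at 14.2 to 17.9 CPM against 10.2 to 13.4 CPM in WT. The part of these cell markers in the Hox differences was not tested.

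**Figure D5:**
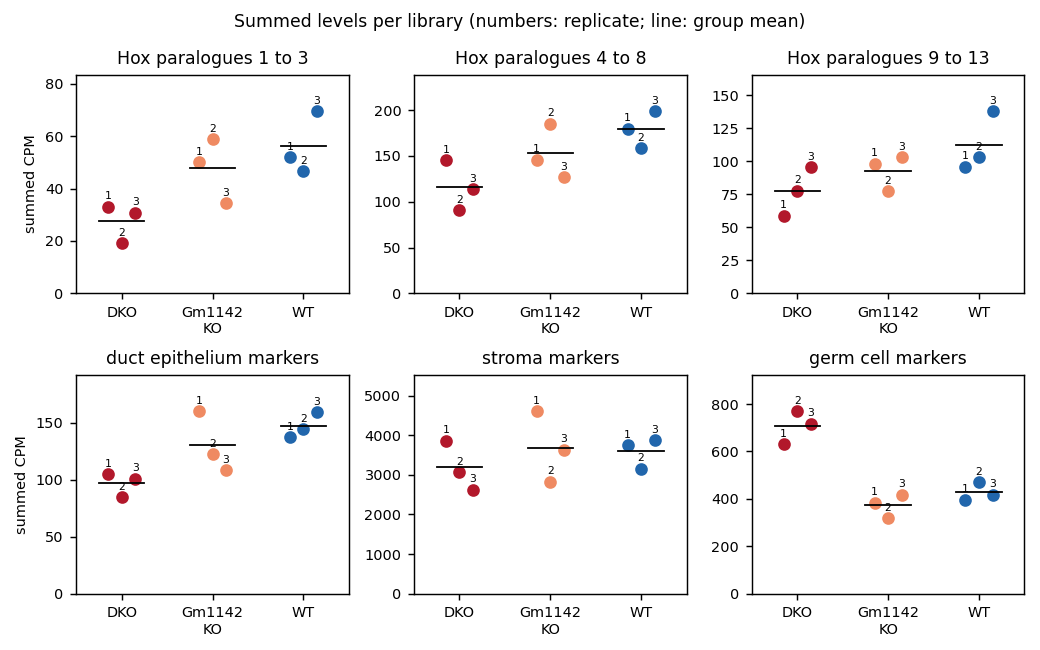
Summed CPM per library of Hox paralogues 1 to 3, 4 to 8 and 9 to 13 (top) and of the markers of duct epithelium, stroma and germ cells (bottom), with replicate numbers and a line at the group mean. The DKO points lie below the WT points for each of the 3 Hox blocks, narrowly for 9 to 13 (at most 95.6 CPM in DKO against at least 95.9 CPM in WT), and for the duct markers, and above them for the germ-cell markers.

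Transcripts that run through the clusters outside the Hox genes were read from the same fit. Of 8 tested antisense and intergenic transcripts, 0 were called in DKO against WT, with 3 lower and 0 higher at an unadjusted p under 0.05 in edgeR's test, and their median log2 fold change was -0.79. Against labelled Gm1142KO, 3 of the 8 were called lower in DKO and 0 higher, beside 10.1% lower and 19.1% in either direction over all tested genes. Hoxd3os1, opposite Hoxd3, had 5.36, 6.204 and 9.06 CPM in DKO and 12.4, 19.4 and 11.3 CPM in labelled Gm1142KO (-1.07, SE 0.29, adjusted p in edgeR = 0.0134). Hoxb3os had 11.5, 4.74 and 7.25 CPM in DKO and 14.95, 22.5 and 14.3 CPM in labelled Gm1142KO (-1.16, SE 0.36, adjusted p in edgeR = 0.0288), and both groups stood apart. Hoxaas2 was lower too (-1.47, SE 0.51, adjusted p in edgeR = 0.0494). Hoxb5os was the transcript called lower in labelled Gm1142KO than in WT, at 2.91, 3.32 and 2.56 CPM against 6.89, 5.52 and 8.83 CPM (-1.27, SE 0.41, adjusted p in edgeR = 0.0332). Since the strand setting is not given in the sources used here, reads of these transcripts and of overlapping Hox genes cannot be told apart. Opposite Hoxb3os lie 52.93% of the exonic bases of Hoxb3 and 27.32% of those of Hoxb2, which was called in the same comparison.

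The clusters also hold microRNAs, of which the row for Mir196a-1 between Hoxb9 and Hoxb13 was tested. Its sequence and that of Mir196b in HoxA, from RefSeq, are shown because both carry the same seed (bases 2 to 8, in capitals), which pairs with Hox transcripts such as Hoxb8.
mmu-miR-196a-5p: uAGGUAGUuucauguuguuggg
mmu-miR-196b-5p: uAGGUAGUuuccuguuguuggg
The libraries were enriched for polyadenylated RNA, so counts over the 102-base hairpin may come from longer transcripts and are not taken as a measure of the mature miRNA. No other gene of the reference annotation overlaps the hairpin, and the source of its reads was not tested. The Mir196a-1 row had 51.5, 40.8 and 65.9 CPM in DKO, 28.9, 49.1 and 38.99 CPM in labelled Gm1142KO and 54.6, 54.0 and 72.6 CPM in WT. The labelled Gm1142KO libraries lay below the WT libraries (-0.64, SE 0.20, adjusted p in edgeR = 0.0306), and DKO overlapped WT (-0.20, SE 0.19, adjusted p in edgeR = 0.816). Mir10a and Mir196b had 0 counts in each library.

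Partners and regulators of Hox genes were read from hand-made lists in the same fit. In DKO against WT none of the lists of cofactors, Polycomb, trithorax, retinoic acid and flanking genes had a called member. In labelled Gm1142KO against WT, the Polycomb repressive complex 1, which silences Hox clusters, had 4 of 19 tested members called lower and 0 higher: Ring1 (-1.33), Cbx8 (-0.96), Pcgf3 (-0.96) and Rybp (-0.64) on the log2 scale. Over all genes tested in this comparison 8.38% were called lower and 18.5% in either direction, so 4 of 19 is near the background only for either direction. The complex summed to 757.1 to 767.4 CPM in labelled Gm1142KO and 862.9 to 901 CPM in WT, without overlap. DKO, at 810.6 to 909 CPM, overlapped WT. The Polycomb repressive complex 2, which writes the silencing mark, had 2 of 11 higher and 2 lower. Its catalytic subunit Ezh2 had 150, 149 and 135 CPM in DKO, 42.5, 39.1 and 52.2 CPM in labelled Gm1142KO and 175, 174 and 180 CPM in WT, where labelled Gm1142KO stood far below WT (-1.98, SE 0.13, adjusted p in edgeR = 3.1e-09). Mtf2 (0.72) and Eed (0.47) were higher and Ezh1 (-0.49) lower. Of the 14 trithorax and MLL genes, which keep Hox genes on, Ash2l (0.79), Kmt2b (0.51) and Dot1l (0.42) were higher and Ash1l (-0.56) lower. Among the 11 TALE cofactors, which bind DNA with Hox proteins, Meis1 (0.44) and Tgif2 (0.81) were higher and Pknox2 (-0.71) and Pbx2 (-0.65) lower.

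Genes beside HoxD had calls in both directions in labelled Gm1142KO against WT. Of 11 tested HoxD flanking genes, 3 were called higher and 1 lower, beside 10.2% higher and 8.38% lower over all tested genes. Lnpk, on the Hoxd13 side, had 58.0, 42.0 and 43.7 CPM in DKO, 111, 134 and 111 CPM in labelled Gm1142KO and 31.0, 44.2 and 40.5 CPM in WT. Labelled Gm1142KO stood above WT without overlap (1.62, SE 0.16, adjusted p in edgeR = 1.01e-06), while 2 HoxD genes were called lower and 0 higher in that comparison. Mtx2 on the Hoxd1 side (0.83) and Atp5g3 (0.83) were higher too, and Nfe2l2 (-0.58) was lower. Beside HoxA 2 of 8 were higher and 1 lower, beside HoxB 0 of 10 higher and 1 lower, and beside HoxC 0 of 7 higher and 1 lower. The HoxB flanking genes summed to 386.7 to 423.4 CPM in labelled Gm1142KO and 453.3 to 463.8 CPM in WT, without overlap. Those of HoxA were also lower, at 1620 to 1757 CPM against 1780 to 1952 CPM in WT. Those of HoxD were higher, at 941 to 953.9 CPM against 669.7 to 742.3 CPM in WT, and those of HoxC overlapped. In DKO the HoxC flanking sum, at 1653 to 1739 CPM, lay below WT at 1853 to 1995 CPM. The HoxA, HoxB and HoxD flanking sums overlapped between DKO and WT.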

How the data were processed

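The authors deposited 1 table of raw read counts per gene, with 1 column per library. Per the labels' protocols mRNA was captured with oligo(dT) beads. According to the submitters' processing notes, the tools were STAR, featureCounts, cutadapt and Bowtie2 and the build was mm39. Versions, strand setting, annotation release and the treatment of overlapping or multi-mapping reads are not given in the sources used here. Identifiers were matched to symbols with GENCODE vM21 (GRCm38), so coordinates, exon lengths and overlaps describe that annotation, not mm39.

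Of the 56691 genes, 17251 passed edgeR's group-wise filter at a minimum count of 10 and a minimum total of 15. A quasi-likelihood fit of 1 term per group over the 9 libraries (TMM scaling, 6 residual degrees of freedom; edgeR 4.0.16, limma 3.58.1, R 4.3.3) gave each test. Benjamini-Hochberg adjustment ran over the genes tested in a comparison, and an adjusted p under 0.05 was called. Standard errors are the log2 fold change divided by the square root of F. The fit was tested on simulated data.

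Alternatives were DESeq2 1.42.0, limma-voom, other size factors, filters and group sets, removal of mitochondrial genes, thinning of libraries to the shallowest, a replicate block and leaving out each library. Leaving out replicate 2 of both knockout groups, adding Hoxd3 and Hoxd4 counts, levels per unshared exonic length and the count of directions without a filter were chosen after seeing the data. The members and the lists were chosen with earlier results of these data known. Named with values were members called in any comparison, the highest member of each cluster in WT, the tested antisense transcripts that were called, and up to 4 called genes of the other lists. Hoxd4, Hoxa9, Hoxb5, Hoxd10, Hoxc11, Hoxa11 and Hoxa13 were added after their values were seen. Some genes of the lists and members are not reported here.

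Libraries held 4370124 to 8359594 counts. Intervals and the floor of 3 counts cover counting error only, since the reads carry no molecular identifiers.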

Additional observations from a re-analysis of the deposited data

How the results depend on the processing

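Over the 9 settings that leave out 1 library each, 0 to 4 Hox genes were called in labelled Gm1142KO against WT, with 0 without replicate 3 of WT (8 at an unadjusted p under 0.05 in edgeR) and 2 without replicate 3 of labelled Gm1142KO. In DKO against labelled Gm1142KO 1 to 8 were called, with 1 without replicate 2 of either group. The call of Hoxd3 in DKO against WT was kept in each of these. In DKO against labelled Gm1142KO, 3 were called with the compared groups fitted alone and 0 without replicate 2 of both, which was chosen after seeing the data. The other lists had 30 called genes in labelled Gm1142KO against WT (16 to 34 with a library left out) and 40 in DKO against labelled Gm1142KO (24 to 40 with a library left out, 19 without replicate 2 of both). With mitochondrial genes removed, the summed Hox level was 326.7 CPM in DKO, 433.36 CPM in labelled Gm1142KO and 515.5 CPM in WT, and the Hox calls were 4, 1 and 6 in the 3 comparisons, as before. Over all genes, 16 were called in DKO against WT, against 9 to 45 with a library left out, 28 with the compared groups alone, 61 with DESeq2 and 110 without a filter. In labelled Gm1142KO against WT 3196 were called, and 2037 without replicate 1 of WT. In DKO against labelled Gm1142KO 3301 were called, 2128 without replicate 2 of DKO and 2004 without replicate 2 of both. The cause was not tested. None of the called Hox values changed sign in any setting run.

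The replicate numbers were not found to pair the samples: deviations from the group means correlated at -0.267 to 0.101 over 9 same-numbered pairs of libraries. With the replicate block, 4 Hox genes were called in labelled Gm1142KO against WT, 1 in DKO against WT and 5 in DKO against labelled Gm1142KO.

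Depth limits the low members: 3 counts are 0.338 to 0.767 CPM, and 11 members, each gene of paralogues 12 and 13 among them, fell below the filter and were not tested.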

Other observations

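Other homeobox genes and the retinoic acid pathway, which switches on Hox genes in the embryo, were read in the same fit. Of 9 tested Cdx, Evx and urogenital homeobox genes, 0 were called in DKO against WT, with 1 lower and 0 higher at an unadjusted p under 0.05 in edgeR's test. That gene was Emx2, a homeobox gene of the urogenital ducts, with 3.44, 2.82 and 3.62 CPM in DKO, 4.08, 3.84 and 4.26 CPM in labelled Gm1142KO and 5.55, 8.08 and 10.6 CPM in WT (DKO against WT -1.30, SE 0.38, adjusted p in edgeR = 0.265). Both knockout groups lay below WT without overlap. Emx2 is also among the duct epithelium markers summed above, so it is not a separate observation from that sum. Cdx2, Cdx4, Evx1 and Evx2 had 0 counts in each library.

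Of 14 tested retinoic acid genes, 0 were called in DKO against WT. Cyp26b1, which breaks down retinoic acid, was lower in labelled Gm1142KO than in WT (-0.51) and higher in DKO than in labelled Gm1142KO (0.54), where Rdh10, which makes its precursor, was lower (-0.65).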
